A study of Mus musculus with 6 samples.

Results

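The clustered protocadherin genes were the 57 protein-coding genes of mouse chromosome 18 whose symbols begin with Pcdha, Pcdhb or Pcdhg in the mm10 annotation (GENCODE vM21), of 21755 protein-coding genes on the autosomes and X. They were chosen by name and position alone. They comprised 12 variable α genes, 2 α C-type genes (Pcdhac1 and Pcdhac2), 22 β genes, 18 γ genes of the A and B kinds and 3 γ C-type genes (Pcdhgc3, Pcdhgc4 and Pcdhgc5). All 57 lay on the plus strand within chr18:36930184-37841873, an interval of 912 kb, with a median of 6900 bp between neighbouring starts of the α variable, β and γ A and B rows. The annotation gave the symbol Pcdha11 to 2 genes, and the one that starts at 37005203 is called Pcdha10 here, after RefSeq.

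The study moved a distal limb enhancer from one regulatory landscape of the HoxD cluster to the other, and the libraries described here are reference profiles of wild-type forelimbs. The 6 samples were wild-type B6CBAF1 mouse embryos (E12.5 in the design text, E12 in the titles), cut into a distal forelimb piece (DFL) and a proximal forelimb piece (PFL). Each piece had 1 chromatin immunoprecipitation library for CTCF, 1 for H3K27ac and 1 for H3K27me3, so no difference between pieces has a replicate check and no p-value was computed. Lists of HOXA13 and HOXD13 regions from whole forelimbs (FL, E11 in the file names) belonged to no sample and were used as the authors' lists. A region is an interval in which the authors' peak caller found more reads than in its surroundings, and its fold is the pileup at the summit over the local background of the same library. The 8 lists held between 9083 and 69503 regions, and sequencing depth is not part of them.

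Clustered protocadherins are cell-surface adhesion molecules by which neurons tell their own branches from those of other neurons. Every variable gene is a long first exon with its own promoter. In the α and γ clusters it is spliced to constant exons shared by the whole cluster, whereas β genes have no constant exons. In neurons each cell uses a small, largely random choice of the variable promoters, while the C-type genes follow more regular rules. CTCF, a DNA-binding protein that halts cohesin and anchors chromatin loops, is known to bind most variable promoters at a conserved element and to join them to distant enhancers. H3K27ac marks active promoters and enhancers. H3K27me3 is laid down by Polycomb repressive complex 2 and marks silenced developmental genes.

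CTCF lay at nearly all of these promoters in limb tissue, whereas H3K27ac and HOX13 regions were less common there than at promoters in general. In DFL, 50 of 57 genes (87.7%, Wilson 95% interval 76.8 to 93.9%) had a CTCF region within 2 kb of a start, beside 32.8% of all protein-coding genes. The count in PFL was 46 of 57 (80.7%, interval 68.7 to 88.9%) beside 32% of all genes. H3K27ac was found at 11 members in DFL (19.3%, interval 11.1 to 31.3%) beside 59.2% of all genes, and at 25 in PFL (43.9%, interval 31.8 to 56.7%) beside 61.6%. H3K27me3 was found at 6 members in DFL (10.5%, interval 4.91 to 21.1%) beside 16.6% of all genes, and at 7 in PFL (12.3%, interval 6.08 to 23.2%) beside 20.2%, so the share of all genes lay inside both intervals. HOXA13 regions lay at 3 members (interval 1.81 to 14.4%) beside 31.7% of all genes, and HOXD13 regions at 2 (interval 0.968 to 11.9%) beside 28.7%. The intervals cover counting error only, and neighbouring genes of a cluster are not independent of each other. In dissected tissue, fewer cells that carry a mark and less of the mark per cell cannot be told apart.

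**Figure D1:**
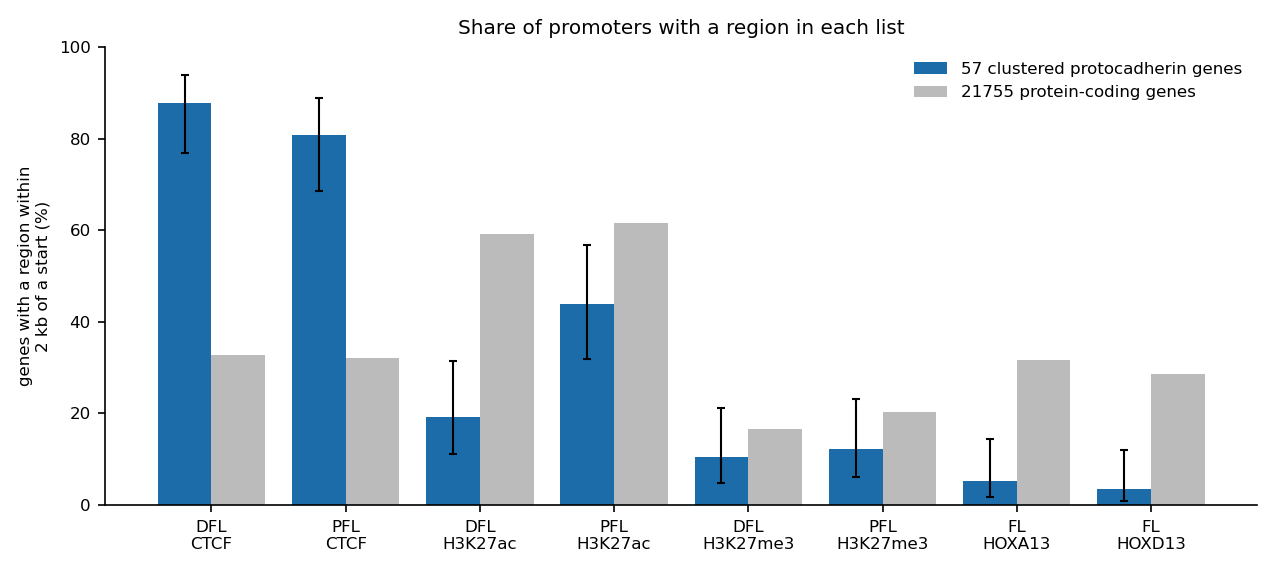
Share of genes (%) with a region within 2 kb of a start in each of the 8 lists, for the 57 clustered protocadherin genes (blue, with Wilson 95% intervals) and for all 21755 protein-coding genes (grey). The blue bars exceed the grey ones for CTCF (87.7% and 80.7% beside 32.8% and 32%) and lie below them for the other 6 lists.

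Over the whole interval, CTCF regions were denser than in the genome at large. They numbered 64 in DFL and 59 in PFL, or 70.2 and 64.7 per Mb beside 20.8 and 20 per Mb of genome. Of these, 55 and 51 lay within 2 kb of a member start, and 57 of the DFL regions overlapped a PFL region. Over the interval as a whole, the histone marks were not sparse by this measure. H3K27ac regions stood at 24.1 per Mb in DFL beside 22.7 in the genome and at 40.6 per Mb in PFL beside 26.4. H3K27me3 regions stood at 7.68 beside 3.45 and at 9.87 beside 5.27. H3K27ac was unevenly spread, and the γ C-type genes with the constant exons held 9 of 22 regions in DFL and 8 of 37 in PFL. In DFL the β part stood at 15.3 per Mb and the γ A and B part at 34.6. The α variable part held 0 regions in either piece. HOXA13 regions (17, or 18.6 per Mb) and HOXD13 regions (11, or 12.1 per Mb) were sparser than in the genome, where there were 25.3 and 20 per Mb. All 7 H3K27me3 regions of DFL and all 9 of PFL lay within 2 kb of a member start.

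**Figure D2:**
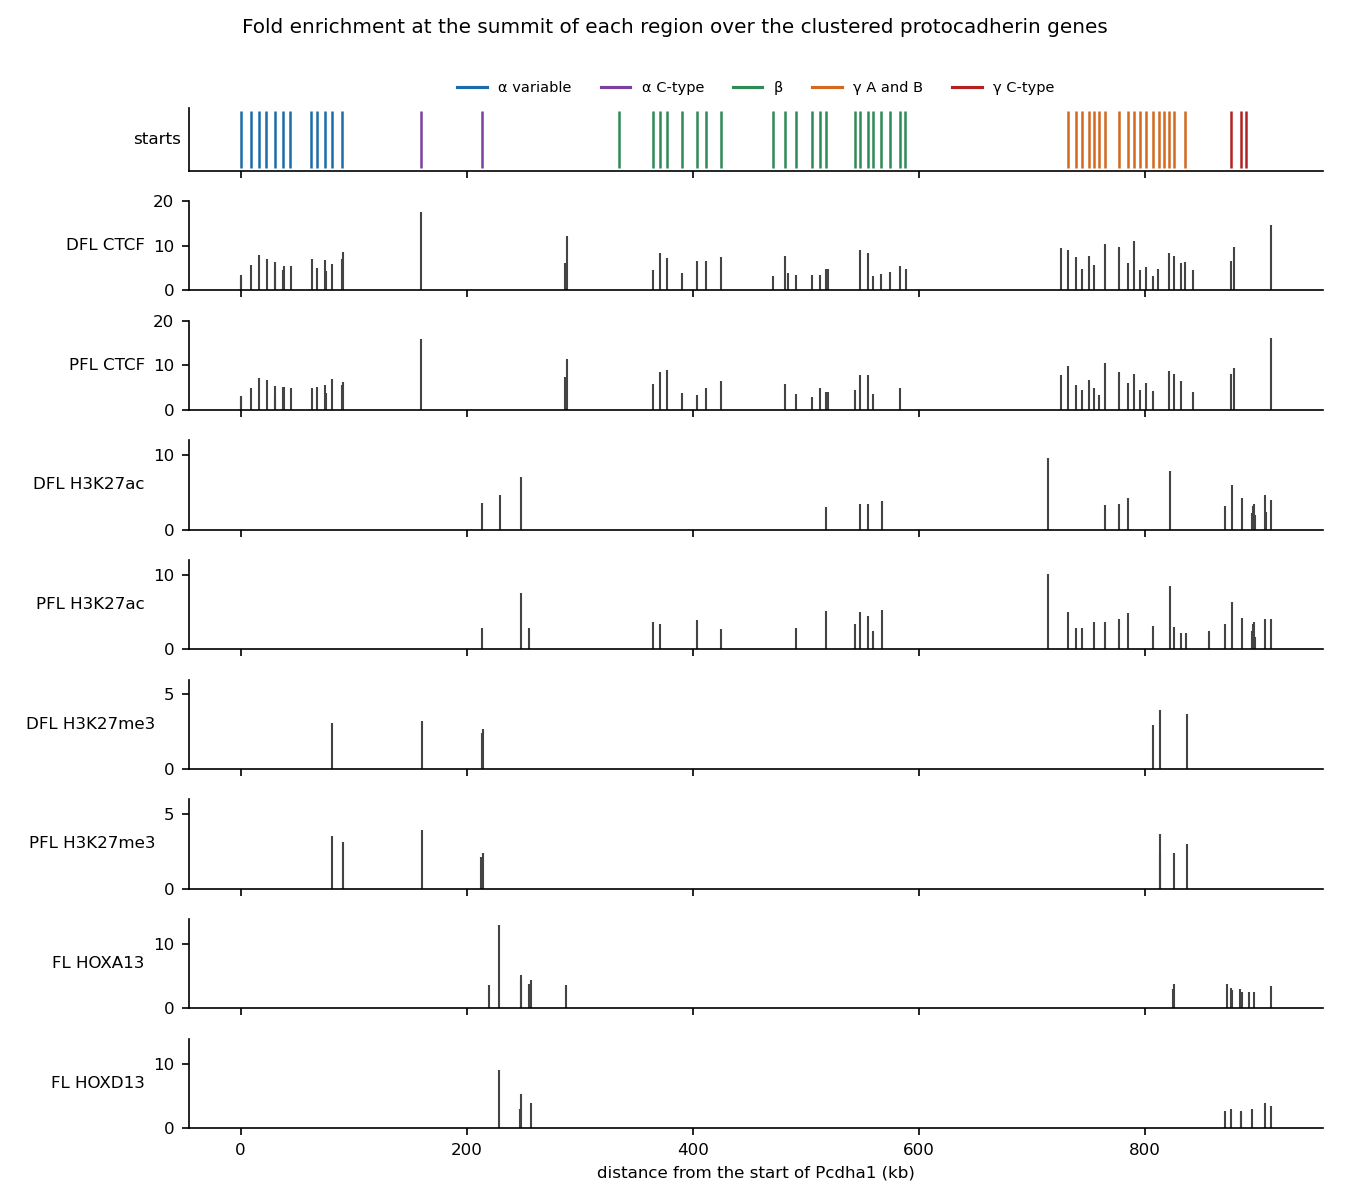
Fold at the summit of every region in each of the 8 lists, by distance from the start of Pcdha1 in kb, with the 57 annotated starts coloured by group at the top. CTCF follows the starts in all clusters, H3K27ac is missing over the 12 α variable genes and appears in the β and γ clusters, and H3K27me3 is limited to 7 regions in DFL and 9 in PFL.

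At the α variable promoters, all 12 genes carried CTCF in both pieces, and no other mark was common there. Pcdha1, the first gene of the cluster, had the lowest fold, 3.35 in DFL and 3.13 in PFL. The highest values were 8.53 for Pcdha12 in DFL and 7.22 for Pcdha3 in PFL. CTCF occupied 2 distinct positions in these genes. A first lay just before the start in 9 genes, with summits from -229 to -10 bp in DFL. A second lay inside the first exon in 8 genes, from 464 to 603 bp after the start in DFL and from 470 to 601 bp in PFL. Pcdha1, Pcdha5, Pcdha6, Pcdha10 and Pcdha12 had both positions, Pcdha2, Pcdha3, Pcdha9 and Pcdha11 (4 genes) only the one at the start, and Pcdha4, Pcdha7 and Pcdha8 (3 genes) only the one in the exon. The 3 sets held the same genes in DFL and in PFL. The median fold was 5.89 at the start and 5.41 in the exon in DFL, and 5.41 and 4.91 in PFL. Outside this cluster, only Pcdhga12 had a promoter summit more than 300 bp after a start, at 339 bp in DFL alone.

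Between the C-type genes CTCF was divided. Pcdhac1 carried the highest fold of any member, 17.5 in DFL and 16 in PFL, with the summit at -66 bp from the start in DFL and at -62 bp in PFL. Pcdhac2, the last α gene, had no CTCF region in either piece. Pcdhgc3 had a fold of 6.50 in DFL and 8.06 in PFL, with summits at -70 and -76 bp. Pcdhgc4 and Pcdhgc5, the last γ gene, had none in either piece.

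In the β cluster, 20 of 22 promoters had CTCF in DFL and 17 in PFL, 16 of them in both. The median fold was 4.74 in DFL and 4.93 in PFL. The highest fold was 8.90 at Pcdhb16 in DFL (7.82 in PFL) and 9.02 at Pcdhb4 in PFL (7.23 in DFL). Pcdhb9 was lowest in DFL, at 3.21, and had no region in PFL. Pcdhb1, the first β gene, had none in either piece, and Pcdhb22, the last, had a fold of 4.65 in DFL and no region in PFL. The summits lay at a median of -54.5 bp from the start in DFL and -48 bp in PFL.

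Among the γ A and B genes, 16 of 18 promoters had CTCF in DFL and 15 in PFL, 14 of them in both. Pcdhga1, the first γ gene, had a fold of 9.10 in DFL and 9.92 in PFL. Pcdhgb4 was highest in DFL, at 11 (7.94 in PFL), and Pcdhga9 lowest, at 3.21 (4.21 in PFL). In PFL the highest was Pcdhga5, at 10.6, with 10.3 in DFL. Pcdhga10 was the only gene of this group with CTCF in neither piece.

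**Figure D3:**
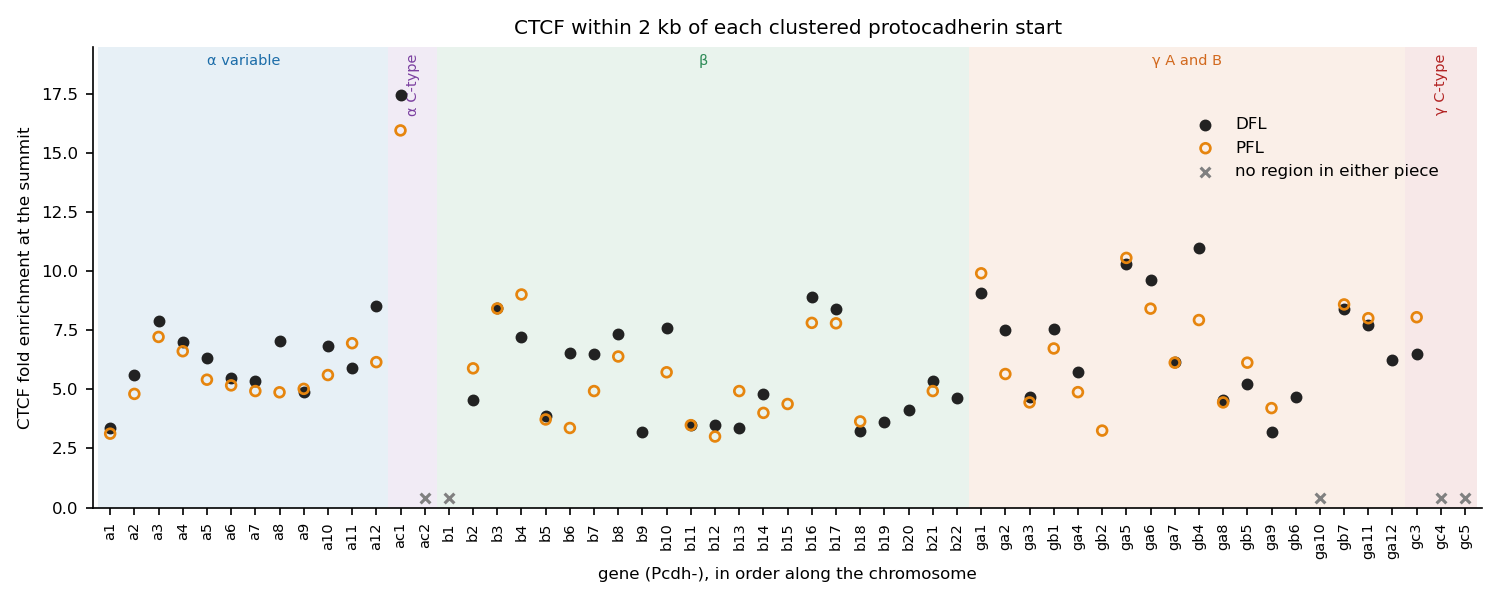
CTCF fold at the highest summit within 2 kb of each of the 57 starts, in gene order, with DFL as filled and PFL as open points and crosses for the 5 genes with no region in either piece. The 44 genes with both points lie between 3 and 11 in fold except Pcdhac1, at 17.5 and 16.

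The pieces resembled each other in CTCF. Over the 44 genes with a region in both, the median ratio of DFL to PFL fold was 1.07, and 30 of 44 were higher in DFL. Over all 48497 CTCF regions shared by the pieces the median ratio was 1.05 and 65.3% were higher in DFL, so the members lay close to the whole lists. Single members ranged from a ratio of 0.679 at Pcdhb13 to 1.95 at Pcdhb6. CTCF was called in DFL alone at 6 members, beside 2.8% of all genes. They were Pcdhb9, Pcdhb19 (fold 3.61), Pcdhb20 (4.15), Pcdhb22, Pcdhgb6 (4.69) and Pcdhga12 (6.23). It was called in PFL alone at 2 members, Pcdhb15 (4.38) and Pcdhgb2 (3.26), beside 1.97% of all genes. These single-piece regions had a median fold of 4.40 in DFL and 3.82 in PFL, below the medians of 6.50 and 5.69 at the genes called in both.

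The sequence under the CTCF summits differed between positions. A 12-letter core consensus of CTCF was searched on both strands within 75 bp of each summit in GRCm38 (mm10), and 1 mismatch was allowed. Among all CTCF regions 57.7% in DFL and 58.4% in PFL held a match. None of the 46 DFL summits and none of the 43 PFL summits at member starts did. With 2 mismatches allowed, a setting chosen after seeing the data, 13 of 46 (28.3%) and 11 of 43 (25.6%) matched, beside 84.4% and 84.9% of all regions. The exonic position of the α genes was the opposite. All 8 of its summits held a match in both pieces, 6 of them with no mismatch, and all 8 were on the strand of transcription. The matches outside the promoters were all on the other strand, 5 of 9 regions in DFL and 4 of 8 in PFL. They included both regions between the α and β clusters and the one in the last γ exon.

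The promoters instead carried the letters CGCT, the core of the conserved sequence element of variable protocadherin promoters. This search was also added after seeing the data. CGCT, on either strand, lay within 75 bp of all 46 DFL summits and all 43 PFL summits at member starts, beside 35% of all CTCF regions in each list. At the same distance from points 1 kb before those summits the shares were 10.9% and 11.6%. The letters were on the strand of transcription at 44 of 46 and 41 of 43 summits and on the other strand at 15 and 17, some holding both. In the 200 bp before the annotated 5′ end, 49 of 57 members (86.0%) had CGCT on the strand of transcription, beside 40.2% of all protein-coding genes. On the other strand 19 members had it (33.3%), beside 40.2%. Of the 5 genes with CTCF in neither piece, Pcdhac2 and Pcdhgc5 lacked CGCT on the strand of transcription, and Pcdhb1, Pcdhga10 and Pcdhgc4 had it. These 4 letters are short, and a match is not evidence of a bound site.

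Base composition varied among the promoters. Within 500 bp of the 5′ end, the members had a median of 44.9% G and C beside 54.8% over all protein-coding genes, and the group medians were 41.3% for β (33.8 to 49.8%), 45.1% for α variable (42.5 to 46.7%), 46.5% for γ A and B (38.9 to 49.95%), 52.7% for γ C-type and 56.8% for the α C-type genes. The ranges of the 3 large groups overlapped. The ratio of observed to expected CpG was 0.564 over the members and 0.558 over all genes. It was 0.684 in the α variable group, 0.593 in γ A and B and 0.378 in β. The β promoters had the lowest medians of the groups in both measures. The genes are related in sequence, and alignments of low mapping quality had been removed from all libraries. Of the 50-base stretches within 500 bp of each 5′ end, a median of 0% and at most 23.8% (Pcdha11) occurred elsewhere in the interval. For the 5 genes without CTCF the highest share was 0.699%, at Pcdhga10. Read mappability was not tested.

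H3K27ac was absent from all 12 α variable promoters in both pieces and was found at β, γ and C-type promoters. All 11 promoters marked in DFL were also marked in PFL. They were Pcdhac2, 4 β genes (Pcdhb14, Pcdhb16, Pcdhb17 and Pcdhb19), 4 γ A and B genes (Pcdhga5, Pcdhga6, Pcdhga7 and Pcdhgb7) and 2 γ C-type genes (Pcdhgc3 and Pcdhgc4). Another 14 were marked in PFL alone, beside 3.59% of all genes, and none in DFL alone, beside 1.17%. Pcdhac1 and Pcdhgc5 had no H3K27ac region in either piece.

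Pcdhgb7 had the highest H3K27ac fold of any member, 7.86 in DFL and 8.54 in PFL, and ranked 3371 of 59804 and 2153 of 69503 regions. Pcdhgc3 followed, at 6.05 and 6.40, and Pcdhgc4 had 4.27 and 4.21. The γ C-type promoters stood in a raised background, so their fold understates the read pileup. Expressed as a multiple of the lowest local background in its library, the pileup at Pcdhgc3 was 22.7 in DFL and 25.3 in PFL, while at Pcdhgb7 it was 8.41 and 9.18. Pcdhgc3 thus had the tallest H3K27ac summit of all members in both pieces, although not the highest fold. Pcdhac2 had 3.56 in DFL and 2.87 in PFL, the only one besides Pcdhgc4 with a higher fold in DFL. For Pcdhgc4 this order turned with the scale, since its pileup multiple was 7.60 in DFL and 8.08 in PFL.

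The 4 β genes marked in both pieces were all lower in DFL. Pcdhb14 had 3.04 in DFL and 5.12 in PFL. Pcdhb16 had 3.48 and 4.97, Pcdhb17 3.41 and 4.50, and Pcdhb19 3.85 and 5.28. Their median ratio of DFL to PFL fold was 0.715, beside 0.966 over all 43810 shared H3K27ac regions, of which the middle 95% lay between 0.540 and 1.46. Each of the 4 was inside that range, the lowest being Pcdhb14 at 0.593. The γ A and B genes were closer to even, with a median of 0.894. Pcdhga5 had 3.34 in DFL and 3.73 in PFL, Pcdhga6 3.48 and 4.12, and Pcdhga7 4.30 and 4.81.

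The 14 promoters marked in PFL alone were 7 β genes and 7 γ A and B genes. Pcdhga1 was the strongest, at a fold of 4.97, followed by Pcdhb6 at 3.88, Pcdhga4 at 3.73 and Pcdhb2 at 3.65. Pcdhb3 and Pcdhb15 had 3.42 each, and Pcdhga9 had 3.11. Pcdhga11 had 3.03, Pcdhga2, Pcdhga3 and Pcdhb11 2.80 each, Pcdhb8 2.72, Pcdhb18 2.41 and Pcdhga12 2.17. All 14 pileup multiples, from 2.27 to 5.30, were above 2, the lowest called in DFL at its lowest background. The lowest called in PFL at its own lowest background was 2.0203, so any region called in PFL would pass that value. The comparison therefore cannot tell whether these promoters lay just under the threshold in DFL. The PFL list was also the longer one. When it was reduced to the size of the DFL list by keeping its regions of highest −log10 q, 13 members remained in PFL alone, beside 2.92% of all genes. The 1 DFL and 1 PFL library cannot separate the piece from the library.

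**Figure D4:**
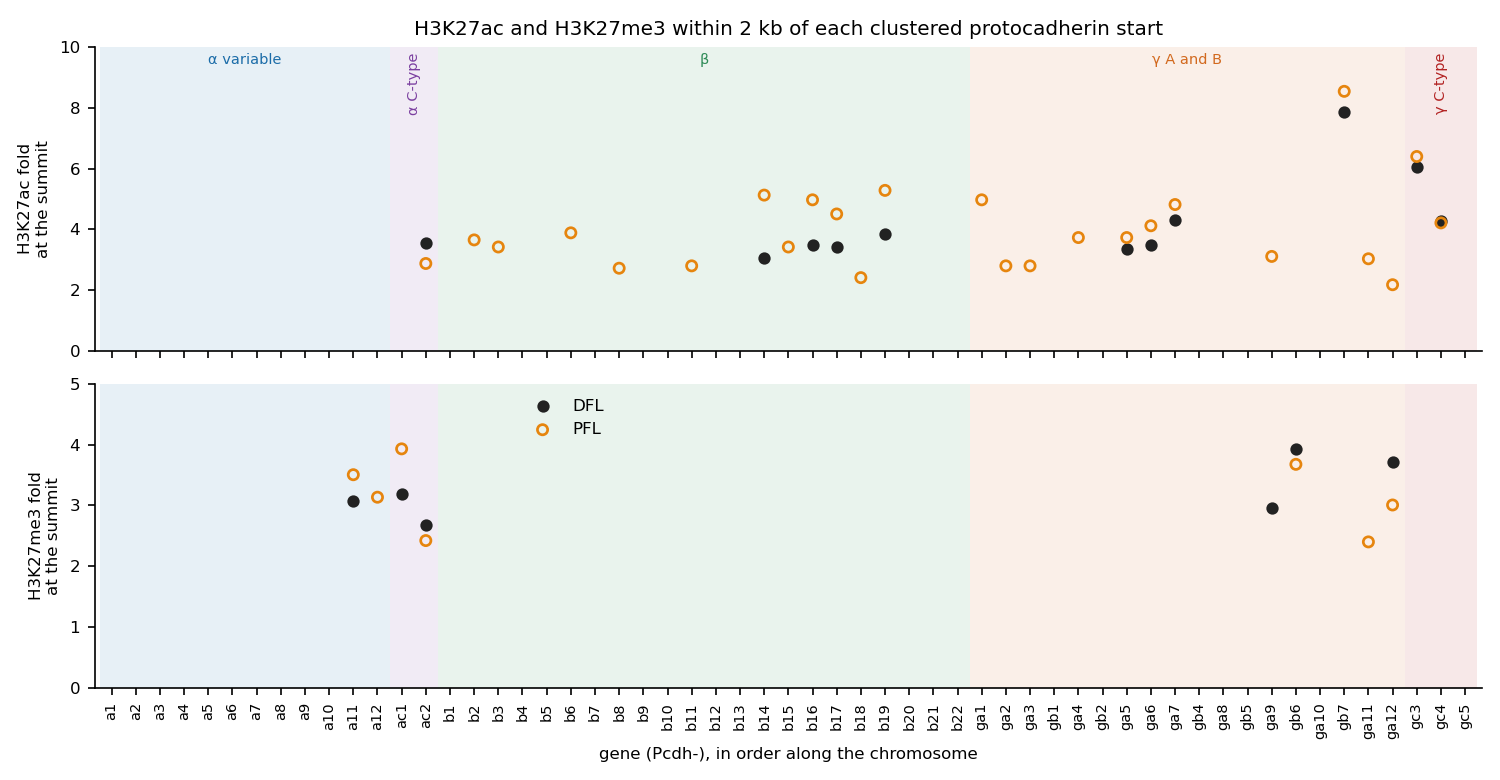
H3K27ac (top) and H3K27me3 (bottom) fold at the highest summit within 2 kb of each of the 57 starts, in gene order, with DFL as filled and PFL as open points and no point where no region was called. H3K27ac is absent from the α variable genes and has 14 genes with an open point only, and H3K27me3 is absent from all 22 β genes.

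CTCF and H3K27ac did not share a summit. All H3K27ac promoter summits lay after the start, at a median of 198 bp in DFL and 205 bp in PFL. By contrast, the CTCF summit of highest fold at each gene lay before the start at 41 of 50 genes in DFL and 39 of 46 in PFL. At the β and γ A and B promoters with both, the H3K27ac summit was downstream of the CTCF summit in 8 of 8 genes in DFL, by 188 to 317 bp, and in 20 of 20 in PFL, by 168 to 336 bp. CTCF was present at 9 of the 11 H3K27ac promoters in DFL and 21 of 25 in PFL. That was near its share of all members, 87.7% in DFL and 80.7% in PFL. The members with H3K27ac and no CTCF in either piece were Pcdhac2 and Pcdhgc4.

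**Figure D5:**
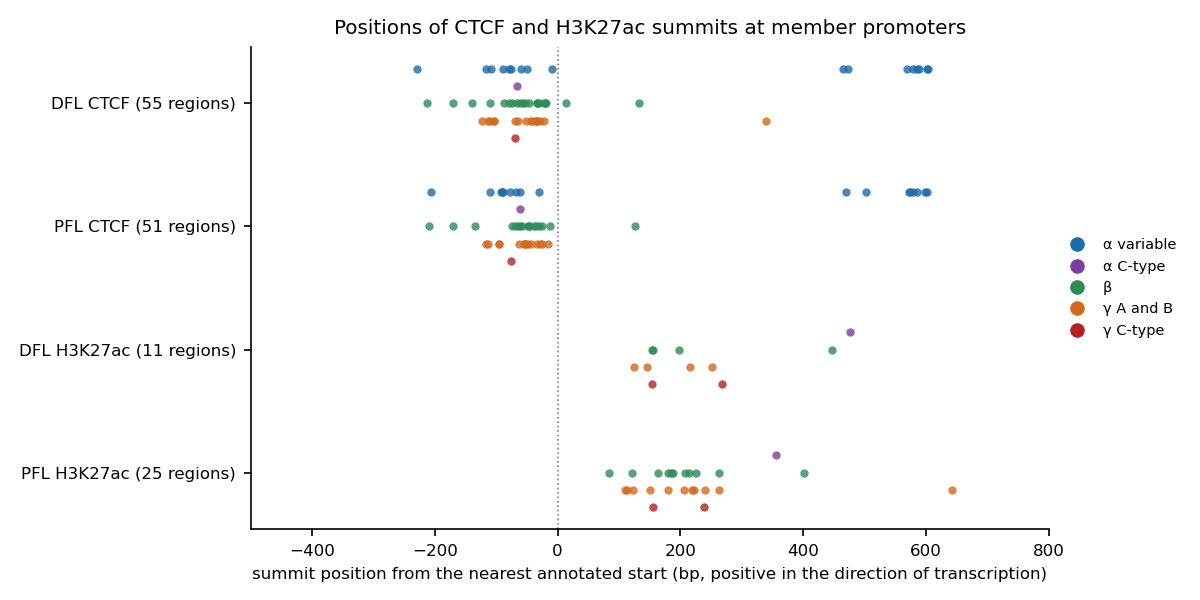
Position of each CTCF and H3K27ac summit at member promoters from the nearest annotated start, in bp and positive in the direction of transcription, coloured by group. CTCF summits cluster just before the start with a second set 464 to 603 bp after it in the α variable genes, and all 11 and 25 H3K27ac summits lie after the start.

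H3K27me3 was confined to 8 members, in the α and γ clusters, and none of the 22 β genes had it. The genes marked in both pieces were Pcdha11, Pcdhac1, Pcdhac2, Pcdhgb6 and Pcdhga12. Pcdha11 had a fold of 3.07 in DFL and 3.50 in PFL, and Pcdhac1 3.19 and 3.93. Pcdhac2 had 2.68 and 2.42, Pcdhgb6 3.93 and 3.67, and Pcdhga12 3.71 and 3.0. Pcdhga9, at 2.95, was the 1 gene marked in DFL alone, beside 0.473% of all genes. Pcdha12 (3.13) and Pcdhga11 (2.4) were the 2 marked in PFL alone, beside 4% of all genes. With the PFL list reduced to the size of the DFL list, no member was marked in PFL alone, beside 1.88% of all genes. Pcdhga12 then joined Pcdhga9 as marked in DFL alone, beside 1.46% of all genes. Counts this small beside such shares say little about the members. By fold the marked members lay near the whole lists, with medians of 3.13 beside 3.23 in DFL and 3.13 beside 2.95 in PFL. At a −log10 q of at least 5 only Pcdhac2 and Pcdhgb6 kept the mark in DFL, beside 13.4% of all genes, and 4 members kept it in PFL, beside 16.9%.

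Pcdhac2 combined both histone marks without CTCF. In DFL its H3K27ac region, chr18:37143536-37144318, lay between H3K27me3 regions at chr18:37142896-37143528 and chr18:37144574-37145483 and overlapped neither of them. In PFL the order was the same, with H3K27ac at chr18:37143667-37144427 between H3K27me3 at chr18:37142230-37143641 and chr18:37144474-37145463. The local H3K27me3 background was 6 times the lowest of the library in DFL and 7.63 times in PFL, so its pileup, 16.6 and 18.8 times that lowest background, was the tallest of any member despite the low fold. Pcdhac2 was the only member with both marks in DFL. In PFL there were 3, with Pcdhga11 and Pcdhga12, and at Pcdhga11 the H3K27ac and H3K27me3 regions overlapped.

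HOXA13 and HOXD13 regions lay at few member promoters, all of them in the γ cluster. Both factors had regions at Pcdhgc3 (fold 3.15 for HOXA13 and 3.02 for HOXD13) and Pcdhgc4 (3.01 and 2.64), and HOXA13 alone had one at Pcdhga11 (3.8). None of the 12 α variable, 2 α C-type or 22 β promoters had either, nor had Pcdhgc5. The strongest HOX13 site of the interval lay in an intron shared by the α genes, 15.6 kb after the start of Pcdhac2. There HOXA13 reached a fold of 13.0 at chr18:37158787-37159468, rank 950 of 66761, and HOXD13 9.04 at chr18:37158904-37159315, rank 2807 of 52660. It coincided with an H3K27ac region called in DFL alone, chr18:37158629-37159711, with a fold of 4.68. A further intronic site, chr18:37177833-37179208, had H3K27ac in both pieces (7.06 in DFL and 7.56 in PFL) and regions of both factors.

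The CTCF regions outside the promoter windows, 9 in DFL and 8 in PFL, lay both between the clusters and inside the β and γ clusters. A pair lay between α and β, at chr18:37217307-37217655 (6.19 in DFL and 7.26 in PFL) and chr18:37218254-37218622 (12.2 and 11.5), and neither held a histone mark in either piece, while the first overlapped a HOXA13 region (3.66). One lay at -6212 bp from the start of Pcdhga1 (9.38 and 7.84), and one 2543 bp after the start of Pcdhgc3 in its first exon (9.70 and 9.44). Weaker ones lay in exons of the β cluster, 2411 bp after the start of Pcdhb10 (3.91 in DFL, none in PFL) and 2400 bp after that of Pcdhb14 (4.79 and 4.09). Around Pcdhga12 there was one at -3930 bp (6.02 and 6.37) and one at 6579 bp (4.55 and 4.09). The last, at chr18:37841189-37841691 in the final γ exon, reached 14.5 in DFL and 16.1 in PFL and overlapped H3K27ac of both pieces and regions of both HOX13 factors. The stretch from Pcdhgc3 to this end held more H3K27ac than the interval as a whole, with 23.8% of its length covered in DFL and 23.0% in PFL, beside 1.84% and 2.49% of the whole interval.

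Of the 5 other protein-coding genes inside the interval, Taf7, a subunit of the general transcription factor TFIID, was the only one with H3K27ac at its promoter. Its fold, 9.66 in DFL and 10.1 in PFL, was above every member. Slc25a2, a mitochondrial ornithine carrier, had no region in any list, and Gm42416, Gm37013 and Gm37388 had CTCF alone. Pcdhgb8, annotated as a polymorphic pseudogene and so not a member, had CTCF at its start in both pieces (the region at -3930 bp from Pcdhga12) and H3K27ac in PFL (2.25). The 12 non-clustered protocadherins presented another picture. H3K27ac lay at 9 of them in each piece, beside 59.2% of all genes in DFL and 61.6% in PFL. H3K27me3 lay at 8 in DFL and 9 in PFL, beside 16.6% and 20.2% of all genes. CTCF lay at 5 in both, beside 32.8% and 32%. The 12 genes known to take part in protocadherin promoter choice or silencing, among them Ctcf, the cohesin subunit Rad21, the cohesin loader Nipbl, the chromatin protein Smchd1 and the DNA methyltransferase Dnmt3b, all had H3K27ac in both pieces. H3K27ac also lay at all 6 genes of Polycomb repressive complex 2 in both pieces, and H3K27me3 at none. The counts of both gene sets stand beside the same shares of all genes, 59.2% and 61.6% for H3K27ac and 16.6% and 20.2% for H3K27me3.

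The labels name tissue pieces rather than cell types, and limb pieces contain nerve. Among 7 neuronal markers, H3K27ac lay at Elavl4, Map2 and Rbfox3 in DFL and at Elavl4 and Map2 in PFL, and Tubb3, Elavl3, Snap25 and Stmn2 had none in either. The part of nerve in the values of the members was not tested. All 4 distal limb markers and all 3 proximal ones had H3K27ac in both pieces, so presence of the mark at their promoters did not tell the pieces apart.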

How the data were processed

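The 6 deposited peak lists (DFL and PFL, 1 library per mark) and 2 lists of HOX13 regions were read as narrowPeak files on mm10. Per the labels, the authors used cutadapt, Bowtie, SAMtools and MACS2. By the study's methods, reads under a mapping quality of 30 were dropped and peaks were called per library at a q-value of 0.05 with no input. Each deposited line gives a fold enrichment, a ratio over local background, with −log10 p-value and −log10 q-value, as the authors' caller computed them, and a summit offset in bp. The deposited score column, which the authors' caller derives from the −log10 q-value, was not used.

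Lines of 1 interval were collapsed to the summit of highest fold. A promoter carried a region that overlapped by at least 1 bp the 2 kb on either side of any basic transcript start. The fold and −log10 p of a line together fix its pileup and local background, which were computed so, and the step was tested on simulated data. No test between pieces was possible. Sequencing depth is reported by the study for each library but was not used here. By that report, PFL had more reads than DFL for CTCF, H3K27ac and H3K27me3, with the widest gap for H3K27me3. The effect of depth on the counts was not tested. The members, lists and alternatives were chosen with earlier results of these data known, and all members were accounted for. Values were given in full for C-type genes, cluster ends, CTCF extremes, genes with H3K27ac and genes called in 1 piece. Python 3 with scipy was used.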

Additional observations from a re-analysis of the deposited data

How the results depend on the processing

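Of 137 recomputed values, 102 stayed within 1.5 times the reported one. The promoter window (1 kb or 0.5 kb), the 5′ end alone, a summit inside the window, merging within 500 bp and an overlap of at least 50% of the shorter region moved none. With a fold of at least 5, CTCF promoters numbered 33 in DFL and 27 in PFL, beside 24.29% and 23.97% of all genes. H3K27ac promoters numbered 2 and 4, beside 43.74% and 44.48%. H3K27me3 promoters numbered 0 in both pieces, beside 1.53% and 1.82%, so their absence says little about the members. HOX13 promoters numbered 0. Interval regions were then 40 and 35 for CTCF (32 shared), 4 and 6 for H3K27ac (4 shared; 5815 and 5940 bp), 0 for H3K27me3 (0 shared; 0 bp), 2 for HOXA13 (1240 bp) and 2 for HOXD13 (914 bp). With −log10 q of at least 5, H3K27me3 promoters numbered 2 and 4, beside 13.4% and 16.9% of all genes. Interval regions of H3K27me3 were then 2 and 5 (2 shared, 1899 bp in DFL), and HOXD13 regions 7. In lists of equal size, H3K27me3 in PFL had 4 promoters, beside 17.0% of all genes, and 5 regions. With 2 mismatches, 13 and 11 CTCF summits at starts matched the consensus. No paired analysis was possible because each mark and piece had 1 library. A region not called may lie just under the caller's threshold, and local background hides part of a broad mark such as H3K27me3. Counts therefore describe these lists.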
